A study of Mus musculus with 2 samples.

Results

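The C-type lectins of myeloid cells were taken as 10 genes, named by symbol: Clec4e, Clec4d, Clec4n, Clec4a1, Clec4a2, Clec4a3, Clec7a, Clec9a, Clec10a and Clec12a. Of these, 9 were among the 31053 genes listed in the count files, and Clec7a was not analysed here. They were read in neutrophil-like, monocyte/macrophage-like and dendritic cell (DC)-like clusters, named from marker genes. The genes were chosen by name with values of these data in view, namely the lower Clec4e level of the control library. The difference of Clec4e between the libraries is therefore a description.

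The cells were CD45+ leukocytes sorted from Braf-mutant mouse melanomas deficient in Ptgs, the genes of the COX enzymes, on day 4 of growth in C57BL/6 hosts aged 8 weeks. Control hosts are described in the labels as untreated. NK-depleted hosts were given anti-NK1.1 (clone PK136, 200 µg) together with anti-asialo GM1 (30 µg) on days 0 and 2, and both antibodies can also bind some cells other than NK cells. Tumors were pooled within each group and parental melanoma cells had been added to both sorted samples, so that each group was 1 library. The genotype field of both samples read wild-type, whereas titles and design text gave a knockout, and this was the same for both groups.

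With 1 library per group there was no replicate and no test. All intervals below are exact 95% intervals that cover counting error only, not the differences between tumors, hosts or library preparations. A difference between the libraries therefore cannot be told apart from a difference between these preparations. A gene was counted as different when its level differed at least 1.5-fold and the interval of the ratio left out 1.

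After filtering, 5292 control cells and 4506 NK-depleted cells were kept, with totals of 24810009 and 23245982 UMIs (unique molecular identifiers, each marking 1 captured transcript). The median cell had 4170 and 4893 UMIs, in that order. Only 5 barcodes were shared. NK-like cells numbered 572 in the control and 8 in the NK-depleted library. The monocyte/macrophage-like class held 2494 and 2489 cells, the neutrophil-like class 364 and 462, and the conventional DC-like class 344 and 368, in that order of libraries. Among the 50 leading genes of the neutrophil-like cluster were 12 of 12 neutrophil markers, and the conventional DC-like cluster had 10 markers of its kind. Neutrophil-like cells were shallow, with medians of 1160.5 and 1299.5 UMIs. Different clusters filled the monocyte/macrophage-like class: clusters 1 and 5 held 27.6% and 21.6% of its control cells, and clusters 3 and 2 held 25.7% and 20.6% of its NK-depleted cells. Class sums are therefore followed by values within clusters.

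C-type lectin receptors are membrane proteins through which myeloid cells recognise sugars, lipids and proteins of microbes and of dying cells. Clec4e, Clec4d and Clec4n signal through the Fc receptor gamma chain, whose ITAM motif recruits the kinase Syk and, through Card9, activates NF-kB. Clec7a and Clec9a carry a shortened form of that motif in their own tails. Clec4a2 and Clec12a carry an ITIM motif, which recruits phosphatases such as that encoded by Ptpn6 and dampens signalling. In tumors these receptors are known from macrophages, neutrophils and dendritic cells alike.

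All but 1 of the 10 genes lie on mouse chromosome 6 (GRCm38, GENCODE M21 annotation). The 6 Clec4 genes occupied 368 kb, from 122921848 to 123289870, in the order Clec4a1, Clec4a3, Clec4a2, Clec4n, Clec4d and Clec4e. Clec4e (ENSMUSG00000030142, chr6:123281789-123289870, minus strand) and Clec4d (ENSMUSG00000030144, chr6:123262111-123275265, plus strand) are neighbours whose 3′ ends face each other. Clec12a, Clec9a and Clec7a formed a second group of 130 kb, 6053 kb further along. Clec10a (ENSMUSG00000000318) is on chromosome 11, at chr11:70156197-70170834 on the plus strand. Clec4a1, Clec4a2 and Clec4a3 are close paralogues, and how reads that fit more than 1 of them were assigned was not tested.

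The 250 bases before the RefSeq start site (GRCm38.p6) are shown for 3 genes on which the comparisons below turn. Clec4e and Clec4d are the neighbouring pair that went opposite ways in the sum of monocyte/macrophage-like cells, although Clec4d varied in direction between its clusters. Clec4a1 passed the 1.5-fold rule in neutrophil-like and in conventional DC-like cells. The windows are chr6:123289872-123290121 (minus strand), chr6:123261857-123262106 (plus strand) and chr6:122921598-122921847 (plus strand). Capitals mark matches, on either strand, to TTNNGNAA (the core letters of C/EBP sites) or GAGGAA (an Ets site of the PU.1 type).
Clec4e: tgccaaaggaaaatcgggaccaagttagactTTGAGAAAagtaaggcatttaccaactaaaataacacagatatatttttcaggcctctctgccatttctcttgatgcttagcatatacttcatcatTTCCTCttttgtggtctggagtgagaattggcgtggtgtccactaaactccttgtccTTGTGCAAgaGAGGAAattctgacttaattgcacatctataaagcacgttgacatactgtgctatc
Clec4d: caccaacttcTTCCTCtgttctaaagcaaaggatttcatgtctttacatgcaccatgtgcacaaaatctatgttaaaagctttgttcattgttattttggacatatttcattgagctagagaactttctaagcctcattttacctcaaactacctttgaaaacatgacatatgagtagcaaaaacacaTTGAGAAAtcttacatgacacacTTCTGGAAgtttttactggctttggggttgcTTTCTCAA
Clec4a1: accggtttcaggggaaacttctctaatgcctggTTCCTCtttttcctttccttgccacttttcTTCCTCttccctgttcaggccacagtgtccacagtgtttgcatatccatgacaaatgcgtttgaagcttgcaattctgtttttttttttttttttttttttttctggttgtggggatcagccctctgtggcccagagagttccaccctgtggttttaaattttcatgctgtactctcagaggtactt

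The Clec4e window held 2 C/EBP and 2 Ets matches, and that of Clec4d held 3 and 1. The Clec4a1 window held 0 C/EBP matches and 2 Ets matches, and the Clec9a window held 0 of both. Among all 32851 RefSeq promoter windows of this length, 36.8% held the C/EBP letters and 23.3% the Ets letters, so that single matches were common. The AP-1 letters TGANTCA occurred in 6.75% of windows and in none of these 4. Of the 10 members, 8 had a promoter entry.

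Clec4e encodes Mincle, a receptor for mycobacterial cord factor and for SAP130 released by dying cells. It was detected with 566 UMIs in control and 908 UMIs in NK-depleted neutrophil-like cells, which gave 1272 CPM (counts per 1000000 UMIs of the class; interval 1169 to 1381) and 1463 CPM (1369 to 1561). Monocyte/macrophage-like cells held 2106 and 4562 UMIs, or 162 CPM (155 to 169) and 324 CPM (314 to 333). In conventional DC-like cells the sums were 23 and 96 UMIs, or 10.9 CPM (6.88 to 16.3) and 40.3 CPM (32.6 to 49.2). The order of the classes was the same in both libraries, with neutrophil-like cells highest. T-like cells, which should lack the gene, held 3 and 4 UMIs (4.62 and 7.07 CPM), and their interval overlapped that of the DC-like cells in the control library. Clec4e was 1.15-fold (1.03 to 1.28) lower in control neutrophil-like cells, 2.00-fold (1.90 to 2.11) lower in control monocyte/macrophage-like cells and 3.71-fold (2.33 to 6.13) lower in control conventional DC-like cells. In the last of these, 5 cells carried 52.2% of the 23 control UMIs and 35.4% of the 96 NK-depleted UMIs.

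The share of cells with at least 1 Clec4e UMI was highest in neutrophil-like cells as well. Among neutrophil-like cells it was 59.6% in the control and 67.3% in the NK-depleted library, and among monocyte/macrophage-like cells 32.9% and 52.5%. After each cell was thinned to 1000 UMIs, which left out shallower cells, the shares were 57.1% (50.9 to 63.1) and 60% (54.9 to 64.9) in neutrophil-like cells. For monocyte/macrophage-like cells they were 12.7% (11.4 to 14.1) and 23.6% (22.0 to 25.4). Thinned T-like cells gave 0.362% and 0.469%, from medians of 2083 and 2333 UMIs before thinning. No single cell held the difference: the 5 highest monocyte/macrophage-like cells carried 4.32% and 2.43% of the Clec4e UMIs of their class.

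Clec4d encodes MCL, the partner that pairs with Mincle. Neutrophil-like cells held 414 and 658 UMIs, or 930 CPM (843 to 1025) in the control and 1060 CPM (981 to 1144) in the NK-depleted library. Monocyte/macrophage-like cells held 2898 and 1660 UMIs, or 222 CPM (214 to 231) and 118 CPM (112 to 124). In that class Clec4d was 1.89-fold (1.78 to 2.01) higher in the control library, the opposite direction to Clec4e. Conventional DC-like cells held 8 and 11 UMIs, at 3.78 and 4.61 CPM, a level whose intervals overlapped those of T-like cells (1 and 0 UMIs).

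Clec4n encodes Dectin-2, a receptor for fungal mannans. Its 315 and 406 UMIs in neutrophil-like cells gave 708 CPM (632 to 791) and 654 CPM (592 to 721), and these intervals overlapped. In monocyte/macrophage-like cells 2088 and 1716 UMIs gave 160 and 122 CPM, 1.32-fold (1.23 to 1.40) higher in the control library. The difference was larger in conventional DC-like cells, where 264 and 125 UMIs gave 125 CPM (110 to 141) and 52.4 CPM (43.7 to 62.5), a 2.38-fold (1.91 to 2.96) higher level in the control. T-like cells held 0 UMIs of Clec4n in either library, with intervals up to 5.69 CPM in the control and 6.52 CPM in the NK-depleted library. The floor, taken as 3 UMIs per library, was 4.62 and 5.30 CPM.

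Clec9a encodes DNGR-1, which binds actin filaments exposed on dead cells and marks the cDC1 subset of dendritic cells. All cells together held 89 UMIs in the control and 114 in the NK-depleted library, of which 85.4% and 88.6% lay in the conventional DC-like class (76 and 101 UMIs; 35.9 and 42.4 CPM). Within that class a subcluster led by Xcr1 and Tlr3, called cDC1-like, had 225 CPM (56 UMIs in 32 cells) and 198 CPM (76 UMIs in 51 cells). A subcluster led by Siglech, called plasmacytoid DC-like, had 68.7 and 59.4 CPM from 10 and 7 UMIs. Monocyte/macrophage-like cells held 5 and 12 UMIs, and T-like cells held 0. The ratio of the libraries over the DC-like class was 0.847 (0.620 to 1.15), so that a difference between them was not detectable at this depth.

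Clec4a2 encodes the inhibitory receptor DCIR. Monocyte/macrophage-like cells held 3107 and 3852 UMIs, or 238 CPM (230 to 247) in the control and 273 CPM (265 to 282) in the NK-depleted library, a 1.15-fold (1.09 to 1.20) lower level in the control. Conventional DC-like cells went the other way as a sum, with 217 and 196 UMIs, 102 and 82.2 CPM, and a control level 1.25-fold (1.02 to 1.52) higher. This was not seen in every subcluster. The one led by Ccl17 and Mmp12 (79 and 20 cells) held 125 of the 217 control UMIs, at 209 and 200 CPM. The one led by Wnt11, Tnf and Fcrls had 76.5 and 122 CPM, and one led by Pclaf and Top2a had 159 and 32.2 CPM. In neutrophil-like cells 80.9 and 98.3 CPM rested on 36 and 61 UMIs, and the intervals overlapped.

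Clec12a encodes MICL, an inhibitory receptor for uric acid crystals. It had 193 CPM (186 to 201) and 275 CPM (266 to 284) in monocyte/macrophage-like cells, from 2518 and 3876 UMIs, 1.42-fold (1.35 to 1.5) lower in the control library. Its levels in neutrophil-like cells (103 and 80.6 CPM) and in conventional DC-like cells (96.8 and 107 CPM) had overlapping intervals. The cDC1-like subcluster had 165 and 209 CPM, from 41 and 80 UMIs, against 83.0 and 86.6 CPM in the DC-like cells outside the cDC1-like and plasmacytoid DC-like subclusters. In both libraries, then, Clec12a was higher in the cDC1-like subcluster than in the sum of those other DC-like cells. It was not particular to that subcluster. The plasmacytoid DC-like subcluster had 144 and 110 CPM, and one led by F13a1, Lpl and Cd14 had 114 and 167 CPM. Their intervals overlapped those of the cDC1-like subcluster. Others were lower, such as one led by Ifitm1 and Il1r2, at 63.6 and 46.1 CPM.

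Clec4a1 and Clec4a3 encode relatives of DCIR. Clec4a1 had 474 CPM (462 to 486) and 680 CPM (666 to 693) in monocyte/macrophage-like cells, from 6177 and 9581 UMIs, 1.43-fold (1.39 to 1.48) lower in the control. Its difference was larger in conventional DC-like cells, where 243 and 593 UMIs gave 115 CPM (101 to 130) and 249 CPM (229 to 270), 2.17-fold (1.86 to 2.53) lower in the control. Neutrophil-like cells held only 5 and 30 UMIs, 11.2 CPM (3.65 to 26.2) and 48.3 CPM (32.6 to 69.0), and the control level overlapped that of T-like cells (13.9 CPM). The 5 highest of the NK-depleted neutrophil-like cells carried 33.3% of those 30 UMIs. In neutrophil-like cells the 14 macrophage markers summed to 591 and 337 CPM, and the part of macrophage RNA in the Clec4a1 difference was not tested.

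Clec4a3 was also highest in monocyte/macrophage-like cells, at 296 CPM (287 to 306) and 404 CPM (393 to 414), from 3865 and 5691 UMIs. This was 1.36-fold (1.31 to 1.42) lower in the control. Conventional DC-like cells had 137 and 187 CPM from 290 and 445 UMIs, again 1.36-fold (1.17 to 1.59) lower in the control. Neutrophil-like cells had 53.9 and 45.1 CPM, with overlapping intervals.

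Clec10a encodes MGL1, a lectin for galactose and N-acetylgalactosamine known from alternatively activated macrophages and DCs. It was highest in conventional DC-like cells, at 381 CPM (355 to 408; 806 UMIs) and 476 CPM (448 to 504; 1134 UMIs), and 1.25-fold (1.14 to 1.37) lower in the control. The cDC1-like subcluster held 1 UMI in each library. In the plasmacytoid DC-like subcluster Clec10a went the other way, at 371 and 50.9 CPM from 54 and 6 UMIs in 28 and 21 cells, 7.28-fold (3.13 to 20.7) higher in the control. Its cells may not be alike in the libraries. Cells called plasmacytoid DC by their own markers numbered 16 in the control and 5 in the NK-depleted library. Over the whole DC-like class 5 of 7 plasmacytoid DC markers were higher in the control by the 1.5-fold rule. The part of this mix in the Clec10a difference was not tested. Monocyte/macrophage-like cells had 133 and 150 CPM from 1736 and 2117 UMIs, and cluster 2, led by Ccl8 and Lyve1, held 65.8% and 66.1% of those UMIs. Neutrophil-like cells held 0 and 2 UMIs, at or below the floor of 3.

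**Figure D1:**
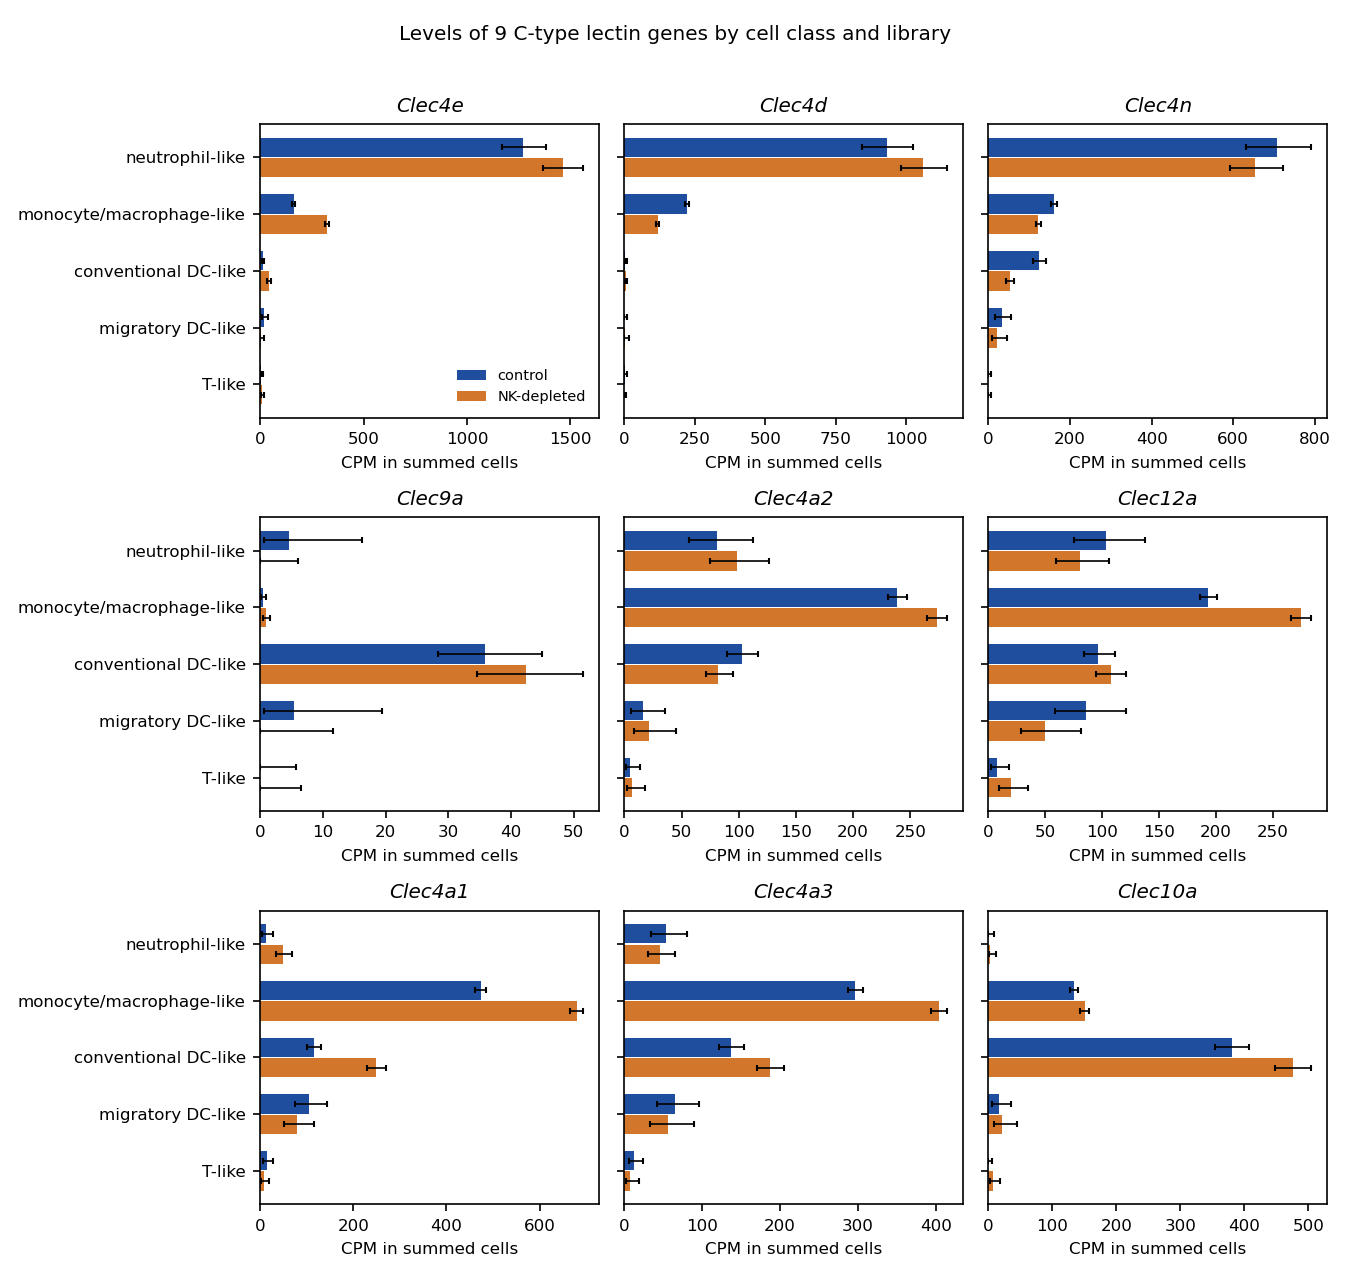
Levels of the 9 measured genes, in CPM of the summed cells (horizontal axis, starting at 0, a different scale in each panel), by cell class and library; bars are class sums of 1 library and lines are exact 95% Poisson intervals. Among the classes shown, Clec4e, Clec4d and Clec4n are highest in neutrophil-like cells in both libraries. Clec4a1, Clec4a2, Clec4a3 and Clec12a are highest in monocyte/macrophage-like cells, and Clec9a and Clec10a in conventional DC-like cells. Unnamed clusters are left out, and some had more. Cluster 13 had 307 and 363 CPM of Clec4a2, and cluster 19 had 1514 and 1253 CPM of Clec4d.

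Counted by the 1.5-fold rule in monocyte/macrophage-like cells, 8 of the 9 measured members had at least 20 UMIs, with Clec9a below that. Clec4e was lower and Clec4d higher in the control library. Of all 11356 genes with as many UMIs, 3.18% were lower and 6.4% higher by the same rule. The median log2 ratio of control over NK-depleted was -0.32 over the 8 members and -0.0044 over all genes. Because Clec4e was chosen for this contrast, neither its count nor its part in the median supports anything.

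Neutrophil-like cells had 7 members with enough UMIs, of which Clec4a1 was lower (log2 ratio -1.99, from 5 and 30 UMIs) and 0 were higher. The background there was 4.11% lower and 5.49% higher among 4716 genes, and the median log2 ratio was -0.19 for the members and -0.013 for all genes. In conventional DC-like cells Clec4e and Clec4a1 were lower and Clec4n was higher among 8 members, against 4.65% lower and 4.64% higher among 9153 genes. Their median log2 ratio was -0.28, and that of all genes -0.022. After thinning to 1000 UMIs a cell, Clec4a1 alone of Clec4e, Clec4a1 and Clec4n still passed the rule. Few counts were left for the other genes. A Clec4e UMI remained in 5 control and 11 NK-depleted cells, and a Clec4n UMI in 26 of 344 and 18 of 367 cells (7.56% and 4.90%). The part of lost counts in their not passing was not tested. Since Clec4e was chosen for its lower level in the control library, neither its count here nor its part in these medians supports anything.

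**Figure D2:**
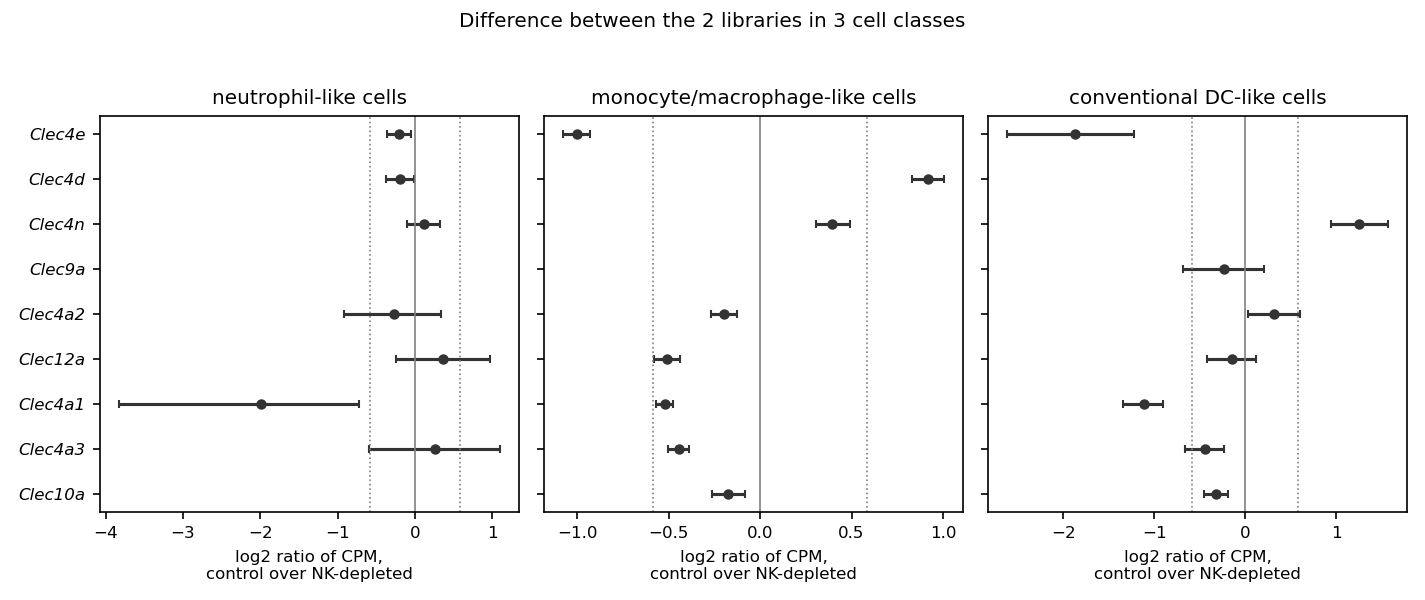
Log2 ratio of CPM, control over NK-depleted, for each member in 3 cell classes; points are ratios of class sums with 0.5 UMI added to each, lines exact 95% counting intervals, and dotted lines a 1.5-fold difference. In monocyte/macrophage-like cells Clec4e (-1.0) and Clec4d (0.92) lie beyond the dotted lines on opposite sides, while in neutrophil-like cells both lie near 0 (-0.20 and -0.19).

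Within the monocyte/macrophage-like class the levels were then compared cluster by cluster. Clec4e was lower in the control library in each of the 7 clusters, and the interval left out 1 in 6 of them. In cluster 3, led by the monocyte genes Ly6c2 and Vcan, it had 323 and 470 CPM. In cluster 11, led by Ace and Adgre4, genes of nonclassical monocytes, it had 290 and 515 CPM. These clusters had the highest Clec4e CPM of the class, and both held more NK-depleted cells (639 and 333) than control cells (249 and 119).

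The other 5 clusters had less. Cluster 1, led by Gpnmb and Mmp13, had 155 and 232 CPM, and cluster 5, led by Pf4 and Arg1, had 168 and 263 CPM. Cluster 2 had 125 and 218 CPM and cluster 8, led by Chil3 and Cd177, had 111 and 232 CPM. Cluster 15, led by Igfbp4 and Stab1, was lowest at 20.2 and 42.9 CPM, from 22 and 12 UMIs. The fold by which the control was lower ran from 1.46 (1.31 to 1.62) in cluster 3 to 2.13 (0.959 to 4.48) in cluster 15. With every cluster given the same weight in both libraries, the levels were 170 and 282 CPM and the log2 ratio was -0.73 in place of -1.0.

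Some clusters kept no class name under the limits set on their leading genes. Cluster 19 had 4 neutrophil markers among its 50 leading genes, but it was shallow (median 1152.5 UMIs) with 0 of them among the first 10, and so stayed unnamed. It had 1457 and 1125 CPM of Clec4e, with a ratio of 1.30 (0.902 to 1.89), and 1514 and 1253 CPM of Clec4d, with a ratio of 1.21 (0.854 to 1.73), both intervals including 1. Cluster 7, led by Slc7a2 and Dcstamp, had 107 and 177 CPM of Clec4e, and cluster 12, led by Havcr2 and Hes1, had 201 and 362 CPM. Cluster 13, led by Retnla and Il6, had 167 and 236 CPM. Clec4e was lower in the control in the last 3 of these, as it was in the monocyte/macrophage-like clusters, but not in cluster 19.

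Clec4d was unevenly spread over the same clusters. Cluster 1 alone held 56.9% of the Clec4d UMIs of the class in the control and 40.0% in the NK-depleted library, with 593 and 411 CPM, 1.44-fold (1.32 to 1.58) higher in the control. It also held 21.3% and 11.5% of all UMIs of the class. Cluster 5 had 264 and 251 CPM and cluster 3 had 49.1 and 48.5 CPM, both with intervals of the ratio that included 1. In clusters 11 and 8 Clec4d was lower in the control, at 42.9 against 82.6 CPM and 23.1 against 40.3 CPM. Cluster 15 had 69.8 and 25.0 CPM, from 76 and 7 UMIs. Given equal cluster weights, Clec4d had 152 and 127 CPM, a ratio of 1.20 (1.12 to 1.29) in place of 1.89, which is under the 1.5-fold limit.

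Clec4a1 was lower in the control in 6 of 7 clusters by intervals that left out 1, most in cluster 3 (469 and 811 CPM) and cluster 8 (494 and 826 CPM). The exception was cluster 1 (322 and 298 CPM; ratio 1.08, 0.966 to 1.21). Clec4n was higher in the control in clusters 2 (84.0 and 51.5 CPM), 8 (154 and 94.8 CPM) and 3 (158 and 118 CPM), and lower in cluster 5 (191 and 236 CPM). Clec12a, Clec4a2 and Clec4a3 were lower in the control in 3 clusters each, and in the other clusters their intervals included 1, except that Clec4a2 was higher in cluster 15 and Clec4a3 in cluster 1. Clec10a was higher in the control in clusters 2 (449 and 362 CPM) and 3 (142 and 108 CPM) and lower in clusters 5 and 11.

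**Figure D3:**
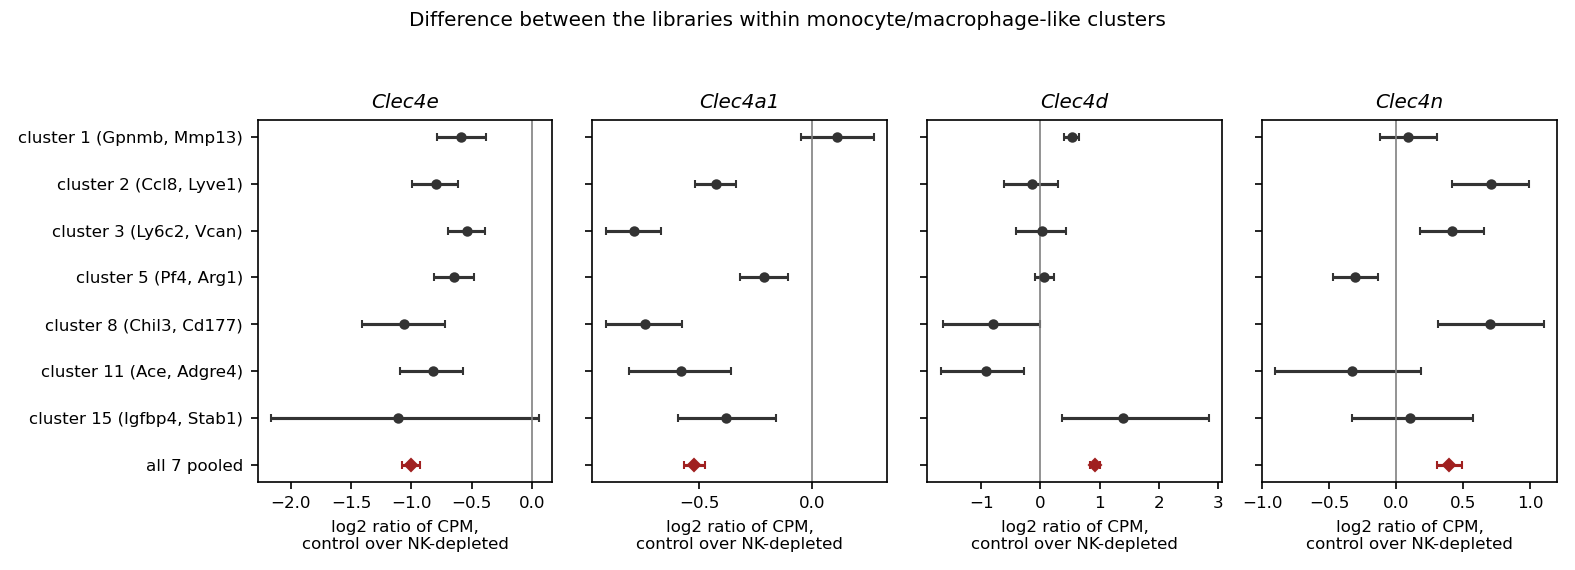
Log2 ratio of CPM, control over NK-depleted, for Clec4e, Clec4a1, Clec4d and Clec4n in the 7 monocyte/macrophage-like clusters and in their sum (diamonds); lines are exact 95% counting intervals and each panel has its own scale. Clec4e lies below 0 in all 7 clusters, from -1.11 to -0.54, whereas Clec4d runs from -0.92 in cluster 11 to 1.39 in cluster 15.

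Among the marker lists, the 14 macrophage markers summed to 16745 CPM in control and 10397 CPM in NK-depleted cells of this class, with 6 of 14 higher in the control by the 1.5-fold rule. The 9 monocyte markers summed to 4470 and 5992 CPM, with 3 of 9 lower in the control. Markers of neutrophils, which carry the most Clec4e, summed to 386 and 400 CPM in monocyte/macrophage-like cells with 0 of 12 at 0. By cluster, they were 699 and 1230 CPM in cluster 5, where Clec4e had 168 and 263 CPM, and 243 and 168 CPM in cluster 2, where Clec4e had 125 and 218 CPM. Immediate early and heat shock genes, which can rise while tissue is being dissociated, summed to 22008 and 26440 CPM in this class and to 18685 and 25692 CPM in conventional DC-like cells. Mitochondrial UMIs had medians of 2.44% and 3.60% in monocyte/macrophage-like cells. The part of neutrophil RNA, of dissociation and of mitochondrial content in the differences was not tested.

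**Figure D4:**
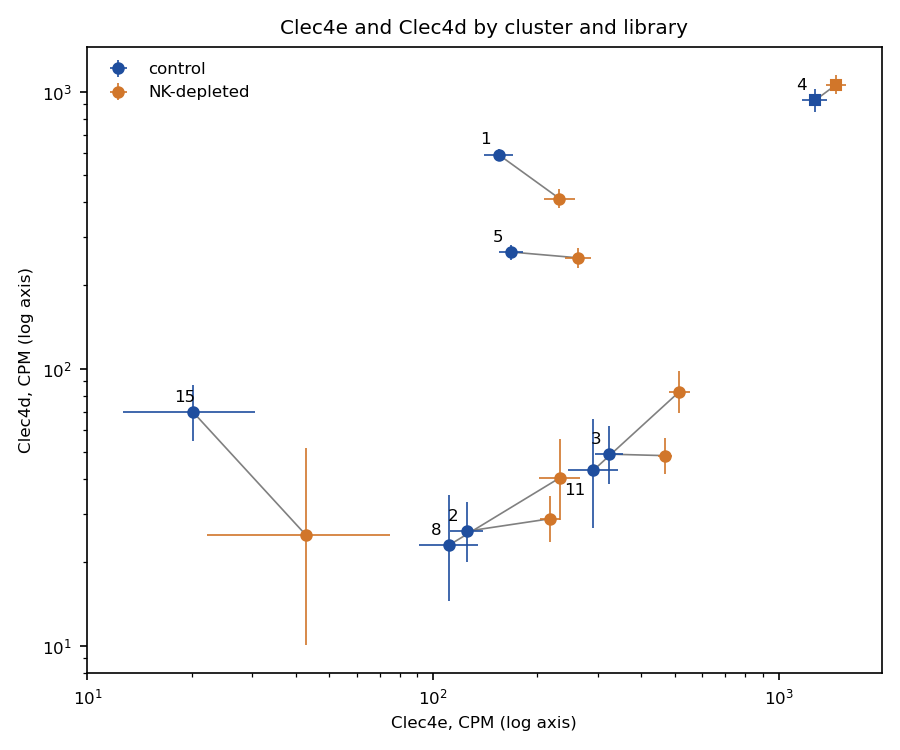
Clec4e (horizontal) against Clec4d (vertical), both in CPM on log axes, in the neutrophil-like cluster 4 (squares) and the 7 monocyte/macrophage-like clusters (circles); a line joins the libraries of a cluster and bars are exact 95% Poisson intervals. Cluster 4 is highest for both genes, clusters 1 and 5 have the most Clec4d of the 7 monocyte/macrophage-like clusters, and clusters 3 and 11 are high for Clec4e with Clec4d under 100 CPM.

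The share of cells with a Clec4d UMI was also compared between single cells with and without a Clec4e UMI. Of control monocyte/macrophage-like cells with a Clec4e UMI after thinning, 19% (14.8 to 23.8) also had a Clec4d UMI, against 15.3% (13.8 to 16.9) of those without. In the NK-depleted library the shares were 10.2% and 9.49%. For neutrophil-like cells they were 59.5% against 55.7% in the control and 62.4% against 52.6% in the NK-depleted library. All 4 pairs of intervals overlapped.

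The conventional DC-like class was divided further, since its members were mixed. A subcluster led by F13a1, Lpl and Cd14 held 7 of 23 control and 42 of 96 NK-depleted Clec4e UMIs of the class, at 47.0 and 130 CPM. Of the Clec4n UMIs, 163 of 264 in the control lay in a subcluster led by Ccl17 and Mmp12, which had 79 control cells and 20 NK-depleted cells, at 273 and 169 CPM. Clec4a1 was 147 and 456 CPM in a subcluster led by Wnt11, Tnf and Fcrls (27 and 64 cells), and 188 and 463 CPM in the one led by F13a1. It was 122 and 138 CPM in the subcluster led by Ccl17 and 184 and 188 CPM in one led by Ifitm1 and Il1r2, with overlapping intervals in both. The cDC1-like cells held 0 and 3 UMIs of Clec4e, 1 and 0 of Clec4n, and 2 and 1 of Clec4a1. Monocyte markers summed to 2319 and 2388 CPM in this class, and plasmacytoid DC markers to 598 and 379 CPM.

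The genes whose levels were most like that of Clec4e were sought over 9 myeloid clusters in both libraries (18 points), among 5883 genes, by Pearson correlation of log2(CPM + 10). The points share 2 libraries and their depth, so the values are descriptions. Cebpb, which encodes a C/EBP transcription factor of myeloid cells, came first (r = 0.95), followed by the receptor genes Cd300lb (0.94) and Cd300ld (0.93). H3f3b, a histone gene, and Nfe2l2, a regulator of the oxidative stress response, both had 0.93, and Pxk, Apbb1ip and Gm5150 had 0.92. Cebpb had 5835 and 8034 CPM in neutrophil-like cells, 1010 and 1495 CPM in monocyte/macrophage-like cells and 84.5 and 150 CPM in conventional DC-like cells.

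Among the other members, Clec4d (r = 0.77, rank 219) and Clec4n (0.74, rank 282) came closest to Clec4e. Clec4d and Clec4n were closer to each other (0.86). Clec4a3 went with Clec12a (0.94) and with Clec4a1 (0.87) over the same points.

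Other genes of the family and pathway were read in monocyte/macrophage-like cells from lists of related genes, beside 3.18% lower and 6.4% higher among all 11356 genes. Of 27 further C-type lectin genes, 12 had at least 20 UMIs, of which Cd209d was lower in the control (42 and 92 UMIs) and Mgl2, the close paralogue of Clec10a, was higher (84.3 and 51.6 CPM). Mrc1, the mannose receptor, had 959 and 1066 CPM. Clec5a, a DAP12-coupled receptor, had 26.1 and 24.4 CPM, and Clec4b1, a DCIR relative, had 49.4 and 72.1 CPM.

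None of the 20 genes of Fc receptor gamma chain and Syk-Card9 signalling passed the 1.5-fold rule in either direction. Fcer1g, the gamma chain itself, had 1858 and 1646 CPM, Syk had 177 and 205 CPM, and Card9 had 11.1 and 15.7 CPM. Of 8 genes of inhibitory signalling, Ptpn6, the SHP-1 phosphatase, was lower in the control (216 and 330 CPM) and 0 were higher. Of 8 ligand genes 7 were measured and 0 passed, with Sap130, a ligand of Mincle, at 5.29 and 4.04 CPM.

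Of 16 genes known to be induced through Syk and Card9, 14 had enough UMIs. In the control 3 of the 14 were lower, Il10 (35.4 and 59.3 CPM), Cxcl1 (32.3 and 51.7 CPM) and Csf3 (4 and 19 UMIs), and 1 was higher, Il23a (26 and 7 UMIs), against 3.18% and 6.4% of all genes. Their median log2 ratio was -0.14, and that of all genes -0.0044. Tnf had 70.9 and 68.7 CPM and Il1b had 1420 and 1596 CPM.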

How the data were processed

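Single-cell 3′ libraries of control and NK cell-depleted tumors were analysed from the deposited UMI counts, which the authors made with bcl2fastq and Cell Ranger on build mm10; the matrix header names release 3.0.2 and the study's methods another. Filters on cells followed the study (500 to 15000 UMIs, 200 to 4000 genes, at most 10% mitochondrial UMIs), and 9798 of 11651 called cells were kept. Rows are genes; for 36 symbols listed more than once the first entry was taken. The submitted values are raw counts, neither normalised nor corrected for free RNA.

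Cells were clustered with scanpy 1.11.5 and leidenalg 0.10.2 (2000 variable genes, 15 components, 20 neighbours, resolution 1), with listed lectins and interferon-response genes left out. Clusters were named from marker lists when at least 3 markers of a class were among their 50 leading genes and, among the first 10, fewer than 2 markers of any other class and no more of it than of their own. Clusters with a median UMI count over 3 times below the mean of the libraries' medians also needed a marker among the first 10. The way variable genes were picked and these naming limits were set after clusters had been seen, and differences from the study may come from the rebuilt names. Doublets were kept in the main values: Scrublet marked 41 (0.775%) control and 31 (0.688%) NK cell-depleted cells, and one alternative left out these and the top 5% of scores.

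For each class of a library, UMIs were summed and given as CPM with exact Poisson intervals. Ratios have exact conditional binomial intervals, log2 ratios add 0.5 UMI, and shares have exact Clopper-Pearson intervals (scipy 1.17.1). Genes needed 20 UMIs over both libraries. The ratio step was checked on simulated counts. Alternatives were clustering resolution, filters, thinning to 1000 UMIs, doublets, TMM scaling (edgeR 4.0.16), subtraction of the level in T-like cells, equal cluster weights, the fold and the UMI minimum.

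Named genes were all members, the listed pathway genes past 1.5-fold in monocyte/macrophage-like cells, and the 8 genes most like Clec4e. Others are named as landmarks of a list, and the co-detection values, the DC subclusters and the motifs were added after values were seen. The members and lists were chosen with earlier results of these data known.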

Additional observations from a re-analysis of the deposited data

Results flagged for a closer look

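Several members went opposite ways in different cells, by intervals that left out a ratio of 1 on both sides; these differences were not tested, since each group was 1 library. The log2 ratio of control over NK-depleted for Clec4d was 0.92 in monocyte/macrophage-like cells (0.27 with equal cluster weights) and -0.19 in neutrophil-like cells. Within the monocyte/macrophage-like class it was -0.92 in cluster 11 and 1.39 in cluster 15, the latter from 76 and 7 UMIs. Clec4n was -0.31 in cluster 5 and 0.71 in cluster 2. Clec4a2 was 0.32 in the sum of conventional DC-like cells, though not higher in every subcluster, and -0.20 in monocyte/macrophage-like cells. Within the monocyte/macrophage-like class it was -0.71 in cluster 11 and 0.35 in cluster 15. Clec4a3 was -0.37 in cluster 11 and 0.50 in cluster 1, and Clec10a was -1.08 in cluster 11 and 0.40 in cluster 3. Where clusters are named, they are the extremes picked from those of the class. Some intervals of the ratio ended near 1. They were 0.774 to 0.994 for Clec4d in neutrophil-like cells and 1.02 to 1.52 for Clec4a2 in conventional DC-like cells. For Clec10a in cluster 11 it was 0.170 to 0.985, from 7 and 51 UMIs.

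Cells above the upper limits on UMIs or genes (212 in the control and 353 in the NK-depleted library) were left out of the main values. They were summed here without division into classes, and parental melanoma cells had been added to both samples. The part of the mix of cell types in their values was not tested. In these summed cells Clec4e was 28.5 CPM in the control (172 UMIs) and 55.2 CPM in the NK-depleted library (541 UMIs), and Clec4a1 was 56.4 and 68.4 CPM. Clec4d was 30.2 and 11.0 CPM (182 and 108 UMIs; ratio 2.74, 2.15 to 3.51) and Clec4n was 55.1 and 17.1 CPM (332 and 168 UMIs; ratio 3.22, 2.66 to 3.90), both higher in the control.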

How the results depend on the processing

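No paired analysis was possible because each group was 1 library. Among the named classes, the one in which each of the 9 measured members was highest was the same under all alternatives run for it. In monocyte/macrophage-like cells the log2 ratio of Clec4e was -1.10 with interferon-response genes kept in the clustering and -0.73 when clusters were weighted equally, and it lay between these under the other 11 alternatives. The number of members past 1.5-fold there, 2, became 4 with cells thinned to 1000 UMIs (Clec4n and Clec12a added), 1 with equal cluster weights and 1 with a fold of 2, both times Clec4e. In neutrophil-like cells the number was 2 in place of 1 at resolution 0.5, at resolution 2, with interferon-response genes kept, and with each cell called by its own markers, with Clec10a added. Clec10a held only 0 and 2 UMIs in the main neutrophil-like class. It therefore passed through further cells placed in the class by those settings, and what these cells were was not tested. In conventional DC-like cells it was 1 in place of 3 after thinning (Clec4a1), which left few Clec4e and Clec4n counts. The share of all genes past the rule is given above for the main setting only. The numbers under the alternatives therefore cannot be set against a background, and nothing is read from them about the members. Clec10a in monocyte/macrophage-like cells turned from -0.17 to 0.17 with equal cluster weights. The other 6 members kept their direction under all 13 alternatives, with log2 ratios of 0.27 to 1.05 for Clec4d, 0.13 to 0.59 for Clec4n, -0.58 to -0.47 for Clec4a1, -0.37 to -0.11 for Clec4a2, -0.51 to -0.14 for Clec4a3 and -0.60 to -0.14 for Clec12a. Equal weights remove the shift in cluster sizes by construction; for the other changes the cause was not tested. The alternatives with unnamed clusters 7, 12, 13 and 14 added, with cluster 19 added, and without the cDC1-like and plasmacytoid DC-like subclusters were chosen after seeing the data and left the 3 numbers at 2, 1 and 3.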
